A study of Mus musculus with 15 samples.

Results

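Complement and macrophage genes were examined in mouse left ventricle after pressure overload. The genes were C1qa, C1qb, C3, C4b, Cd68, Lyz2, Laptm5 and Csf1r, 8 in all, and every probe set annotated to exactly one of them was taken. That gave 11 probe sets for 6 genes, out of 8251 genes named by a single-symbol probe set on the array. No probe set used here was annotated to C3, and the 2 probe sets that name C4b also name C4a, so C4b could not be read apart from it. Total RNA was measured on 15 one-colour arrays in a series on cardiac hypertrophy. The labels give 3 female hearts with an operation called TAC, 3 female hearts labelled as sham controls, 3 male hearts with TAC and 6 male sham hearts. The labels state no strain, age or time after the operation, and nothing in them ties each array to an animal of its own. The p-values therefore reflect the spread among these arrays, which may be technical.

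C1q is the recognition molecule of the classical complement pathway and is built from A, B and C chains, which macrophages make locally in tissues. Once C1q binds a target such as clustered immunoglobulin, the pathway cleaves C4 and then C3 and marks the surface for phagocytes. In the mouse heart, resident macrophages depend on signals through the CSF1 receptor, and their numbers are known to change after pressure overload. Cd68, Lyz2 and Laptm5 mark the lysosomal and antibacterial machinery of these cells and of other leukocytes.

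None of the 6 genes differed between TAC and sham hearts by more than the spread between arrays. Intensities are in arbitrary units on a linear scale, and log2 changes are TAC minus sham after values under 20 were set to 20. Averaged over the sexes, the 8 member probe sets bright enough to be tested had log2 changes between -0.17 for Csf1r and 0.18 for C1qa. None of the 8 passed an adjusted p of 0.05 in limma, a linear model fitted across all probe sets, where 0.322% of the 7453 probe sets tested did. The smallest adjusted p among them was 0.782, for Csf1r, and 0 of 8 had an unadjusted p under 0.05, against 7.51% of all probe sets tested. Had a change been seen, left ventricle RNA could not have told a change in macrophage number from one in RNA per macrophage.

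**Figure D1:**
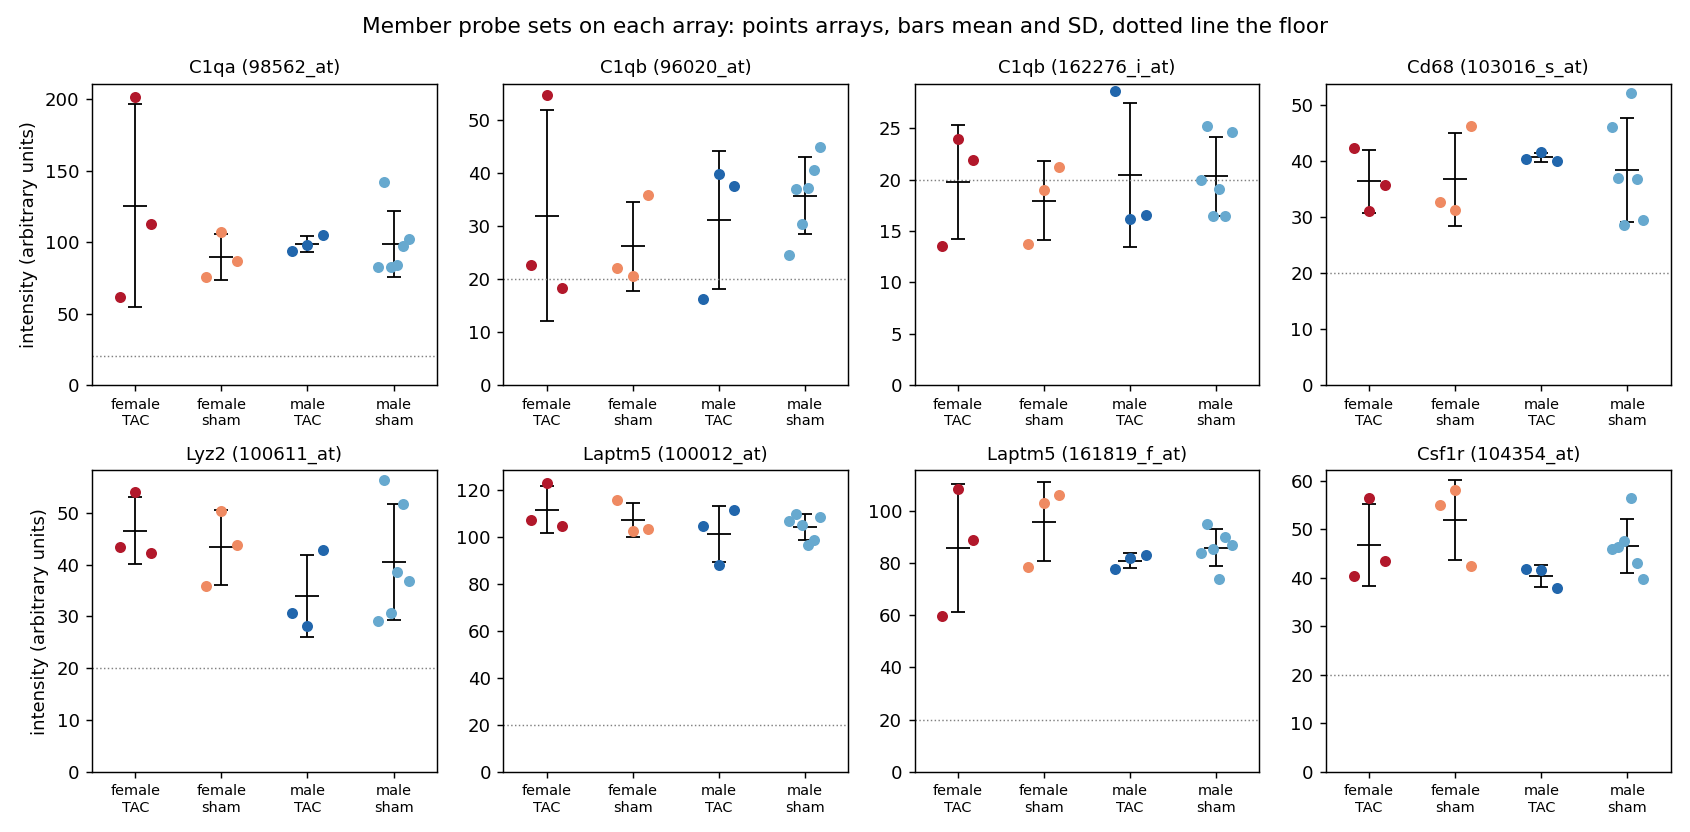
Intensity (arbitrary units, vertical axes from 0) of the 8 tested member probe sets on each array, in female TAC, female sham, male TAC and male sham hearts; points are arrays, bars are the mean and SD, and the dotted line is the floor of 20. TAC and sham arrays overlap in every panel, and the C1qa value of 201.8 in female TAC 2 stands highest in its panel.

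C1qa, which encodes the A chain of C1q, had intensities of 61.5, 201.8 and 112.7 in female TAC hearts 1, 2 and 3, against 75.4, 106.9 and 86.5 in female sham hearts. In male TAC hearts it had 93.5, 98.0 and 104.8, against a lowest value of 82.6, a median of 90.6 and a highest of 142.4 in male sham hearts. The female TAC hearts thus held both the lowest and the highest of the 15 values, and the groups overlapped in both sexes. For C1qa the log2 change was 0.18 ± 0.20 (SE) averaged over the sexes, with a 95% interval of -0.25 to 0.61 and an adjusted p of 0.884 in limma. In females it was 0.33 ± 0.31 and in males 0.03 ± 0.27 (SE).

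The C1qa estimate rested on single arrays. Without female TAC 2 the averaged log2 change was -0.03 ± 0.17, and without female TAC 1 it was 0.40 ± 0.16 (SE), with an adjusted p of 0.499 in limma. In females alone the corresponding log2 changes were -0.09 and 0.77, and the second of these had an adjusted p of 0.73. The level of these 2 arrays moved with the gene: female TAC 1 had the lowest median intensity of all arrays, 21.3, and female TAC 2 the highest, 26.7. After each array was centred on its median, C1qa was still lowest in female TAC 1, at 72.4, and highest in female TAC 2, at 189.1.

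C1qb, the B chain, was read by a pair of probe sets. The brighter one had intensities of 22.7, 54.7 and 18.3 in female TAC hearts 1, 2 and 3, against 22.1, 20.5 and 35.8 in female sham hearts. In male TAC hearts it had 16.2, 39.7 and 37.5, against a lowest value of 24.5, a median of 37.0 and a highest of 44.9 in male sham hearts. Here too female TAC 2 was the highest array, while the lowest was male TAC 4, the groups overlapped, and 2 TAC arrays lay under the floor. For this probe set the averaged log2 change was 0.01 ± 0.23 (SE), with a 95% interval of -0.47 to 0.50 and an adjusted p of 0.994 in limma. It was -0.21 without female TAC 2 and 0.17 without male TAC 4.

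The dimmer C1qb probe set averaged 19.8 ± 5.6 in female TAC, 17.9 ± 3.9 in female sham, 20.5 ± 7.1 in male TAC and 20.3 ± 3.8 in male sham hearts (SD, n = 3, 3, 3 and 6). Its value was under 20 on 3 of 6 TAC and 5 of 9 sham arrays, and its averaged log2 change was 0.09 ± 0.11 (SE), which depends on where the floor is set. The deviations of the 2 C1qb probe sets from their group means had a Pearson r of 0.01 over the 15 arrays. At this signal the pair did not give the same array-to-array pattern.

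C4b, the other complement member that could be looked at, encodes the C4 protein that activated C1 cleaves. Its brighter probe set also names C4a and averaged 156.4 ± 16.8 in female TAC and 166.4 ± 25.8 in female sham hearts (SD, n = 3 each). In male hearts the means were 155.1 ± 14.0 with TAC (SD, n = 3) and 157.0 ± 16.8 after sham (SD, n = 6). Averaged over the sexes, its log2 change was -0.05 ± 0.10 (SE), with a 95% interval of -0.27 to 0.17. The second such probe set had no value above 3.3 on any array.

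Csf1r encodes the receptor for CSF1 and IL-34, on which tissue macrophages depend for survival. Its intensities were 40.4, 56.4 and 43.5 in female TAC hearts, against 55.0, 58.1 and 42.5 in female sham hearts. In male TAC hearts it had 41.9, 41.6 and 37.8, against a lowest value of 39.8, a median of 46.1 and a highest of 56.5 in male sham hearts. The 3 male TAC values lay at the low end of the male sham values but overlapped with them. The averaged log2 change was -0.17 ± 0.11 (SE), with a 95% interval of -0.41 to 0.06 and an adjusted p of 0.782 in limma. When TAC and sham were exchanged among arrays of one sex in all 1680 ways, the exact two-sided permutation p for Csf1r was 0.115.

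The Csf1r permutation p depended on single arrays, as it was 0.0405 without female TAC 2 and 0.0452 without female sham 3, with mean log2 differences of -0.25 and -0.24. Without any other single array the permutation p was 0.0768 to 0.273. It was highest without female TAC 1, where the difference was -0.13. These p-values were not adjusted for the 11 probe sets examined in the same way or for leaving out each array in turn. The limma call did not change without female TAC 2 or without female sham 3. With each array centred on its median, the difference was -0.12 and the exact p was 0.295. The ligand gene Csf1 had a log2 change of -0.02 ± 0.11 (SE), and Spi1, which encodes the myeloid transcription factor PU.1, had -0.05 ± 0.14 (SE), with adjusted p of 0.977 and 0.96 in limma. The second Csf1r probe set was below the floor on all 15 arrays, with values up to 9.9 and 5 arrays listed at 0, and was not tested.

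Cd68 encodes a glycoprotein of macrophage lysosomes and endosomes. It had intensities of 42.3, 31.1 and 35.7 in female TAC hearts, against 32.6, 31.3 and 46.2 in female sham hearts. Male TAC hearts had 40.4, 41.6 and 40, against a lowest value of 28.6, a median of 36.9 and a highest of 52.2 in male sham hearts. Every male TAC value lay inside the male sham range. Cd68 had an averaged log2 change of 0.06 ± 0.14 (SE), with a 95% interval of -0.25 to 0.36 and an adjusted p of 0.953 in limma. Its second probe set stayed below the floor on all 15 arrays, with a highest value of 10.4, and was not tested.

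Lyz2 encodes lysozyme M of macrophages and neutrophils. It had intensities of 43.4, 54.1 and 42.3 in female TAC hearts, against 35.9, 50.3 and 43.9 in female sham hearts. Male TAC hearts had Lyz2 values of 30.7, 28.1 and 42.9, against a lowest value of 29.2, a median of 37.6 and a highest of 56.4 in male sham hearts. The log2 change was 0.11 ± 0.24 in females and -0.24 ± 0.21 in males (SE), and the difference between the sexes, 0.35 ± 0.32 (SE), had an unadjusted p of 0.294 in limma. The averaged log2 change was -0.07 ± 0.16 (SE), with a 95% interval of -0.40 to 0.27.

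A probe set that names both Lyz1 and Lyz2 had an averaged log2 change of 0.13 ± 0.13 (SE). Its change in males was 0.21 ± 0.17 (SE), of the opposite sign to that of the Lyz2 probe set. The second Lyz2 probe set was below the floor on all 15 arrays, with values up to 13.4, and was not tested.

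Laptm5 encodes a lysosomal membrane protein of blood cells. Its first probe set had intensities of 107.2, 123.3 and 104.6 in female TAC hearts, against 115.8, 102.8 and 103.5 in female sham hearts. Male TAC hearts had 104.6, 88.1 and 111.5, against a lowest value of 96.8, a median of 106.2 and a highest of 109.8 in male sham hearts. For this probe set the SD within groups was 0.11 on the log2 scale, the smallest of the 8, and 2.6% of the probe sets tested had a smaller one. Its averaged log2 change was therefore the most narrowly bounded of the 8, with a 95% interval of -0.18 to 0.19. The second Laptm5 probe set was less steady, with an SD within groups of 0.23, larger than the 0.19 of Csf1r. It had a log2 change of -0.14 ± 0.12 (SE), with an interval of -0.40 to 0.13, and the deviations of the 2 probe sets had a Pearson r of 0.19 over the 15 arrays.

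C1qa and the brighter C1qb probe set stood at the other end of this range. Their within-group SD was 0.43 and 0.50 on the log2 scale for the brighter probe sets, where the median over all tested probe sets was 0.24. Among the probe sets tested, 93.6% had a smaller SD than C1qa and 96.6% a smaller SD than C1qb. Intervals for these probe sets were accordingly wide. In females alone they reached 0.99 for C1qa and 0.94 for the brighter C1qb probe set on the log2 scale. The dimmer C1qb probe set was under the floor on 8 of 15 arrays. Its SD was 0.18, and 20.5% of the probe sets tested had a smaller one.

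**Figure D2:**
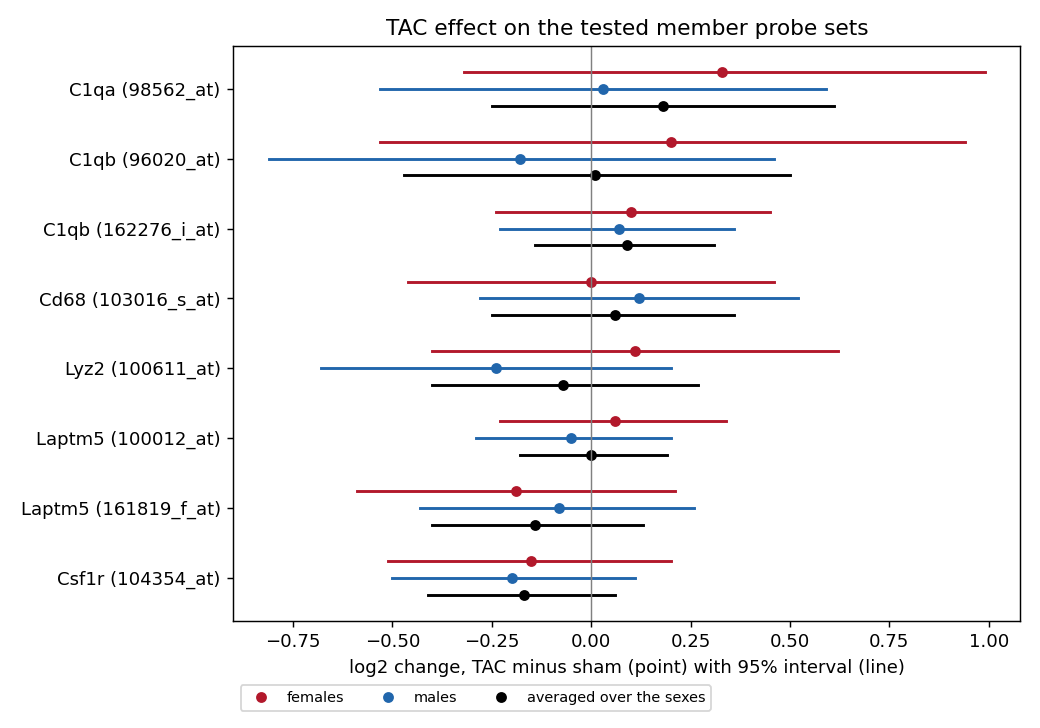
Log2 change, TAC minus sham (horizontal axis), of the 8 tested member probe sets in females, in males and averaged over the sexes; points are limma estimates and lines are 95% intervals. Every interval crosses 0, and those of C1qa and of the brighter C1qb probe set are wider than those of Laptm5 and Csf1r.

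The sexes were compared next. In females, 0 of the 8 probe sets passed in limma, where 0.0805% of all tested probe sets did, and 0 had an unadjusted p under 0.05, where 4.59% of all did. The deviations of same-numbered female TAC and sham arrays correlated at 0.117 to 0.27, but differently numbered arrays were not compared. A fit that blocked on the shared number (replicate block) gave 3 calls over the array in females, against 6 without it. Either way, 0 of the 8 members passed. Female log2 changes ran from -0.19 for the second Laptm5 probe set to 0.33 for C1qa. In males, 0 of the 8 passed, where 0.134% of all tested probe sets did, and 0 had an unadjusted p under 0.05, where 6.20% of all did. Male log2 changes ran from -0.24 for Lyz2 to 0.12 for Cd68. TAC and sham arrays did not overlap for 0 of the 8 in females and 0 of the 8 in males, where 8.51% and 2.97% of all tested probe sets had no overlap. The effect in females minus that in males ranged from -0.12 for Cd68 to 0.38 ± 0.46 (SE) for the brighter C1qb probe set, and the smallest unadjusted p of the 8 was 0.294, against 2.56% of all tested probe sets under 0.05. No probe set of the array passed this test after adjustment in limma.

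Female minus male differences in sham hearts ranged from -0.47 ± 0.30 (SE) for the brighter C1qb probe set to 0.15 ± 0.15 (SE) for Csf1r. Of the 8, 0 had an unadjusted p under 0.05, where 4.71% of all tested probe sets did. After adjustment in limma, 0 of the 7453 probe sets tested passed this comparison. Female and male sham arrays also carry different title numbers, so sex and array number cannot be told apart. For this brighter C1qb probe set the group means were 26.1 ± 8.4 in female sham (SD, n = 3) and 35.7 ± 7.3 in male sham hearts (SD, n = 6). Its adjusted p was 0.974 in limma. Without female sham 3 its difference was -0.72, and without female sham 2 it was -0.32. The dimmer C1qb probe set had a difference of -0.08 ± 0.14 (SE).

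Ordered by mean intensity, C1qa was highest in female TAC hearts and lowest in female sham hearts. The brighter C1qb probe set was highest in male sham and lowest in female sham hearts, Cd68 highest in male TAC and lowest in female TAC hearts, and Lyz2 highest in female TAC and lowest in male TAC hearts. For Csf1r the highest mean was that of female sham and the lowest that of male TAC hearts. The first Laptm5 probe set was highest in female TAC and lowest in male TAC hearts. The ranges of neighbouring groups overlapped in each of these orders, so the orders describe these arrays only.

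Whether the members varied together between hearts of the same group was asked with deviations from the group means, over 15 pairs of the 6 genes. The pair C1qa and Lyz2 had a Pearson r of 0.58, with p = 0.00166 from 100000 permutations within groups and 0.0249 after Benjamini-Hochberg adjustment over the pairs. Spearman's rho was 0.67 (permutation p = 0.011, adjusted p = 0.166). Without the 2 arrays farthest from the C1qa median, r was 0.78, and among the 9 sham arrays alone it was 0.82. The relation did not keep its adjusted call in other settings: r was 0.44 after median centring (adjusted p = 0.93), 0.60 without female TAC 2 (0.0799), 0.47 without male sham 5 (0.197), and the sham arrays alone gave an adjusted p of 0.0765, all by permutation.

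C1qa and C1qb, whose products assemble into one molecule, gave r = 0.55 by Pearson and rho = 0.42 by Spearman (permutation p = 0.201 and 0.213, adjusted p = 0.604 and 0.665). The Pearson r was 0.22 without the 2 arrays farthest from the C1qa median and 0.13 without female TAC 2, so it rested on those arrays. The remaining 13 pairs had r between -0.39 and 0.44 and none passed.

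C1qc, the C chain, is no member but was measured on the same arrays and is shown for comparison with its partners. Its intensities were 90.3, 157.9 and 105.8 in female TAC hearts, against 75.1, 104.8 and 121.3 in female sham hearts. Male TAC hearts had 106.0, 126.3 and 116.6, against a lowest value of 87.2, a median of 102.8 and a highest of 125.5 in male sham hearts. As with C1qa and the brighter C1qb probe set, the highest array was female TAC 2. The averaged log2 change was 0.18 ± 0.14 (SE, adjusted p = 0.814 in limma). As a description over the 15 arrays, the deviations of C1qc and C1qa had a Pearson r of 0.81. This placed C1qc at rank 143 of 7452 probe sets by likeness to C1qa, where the brighter C1qb probe set was at rank 1636. Without female TAC 2 the r of C1qc and C1qa was 0.67, and ranks were not taken again.

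**Figure D3:**
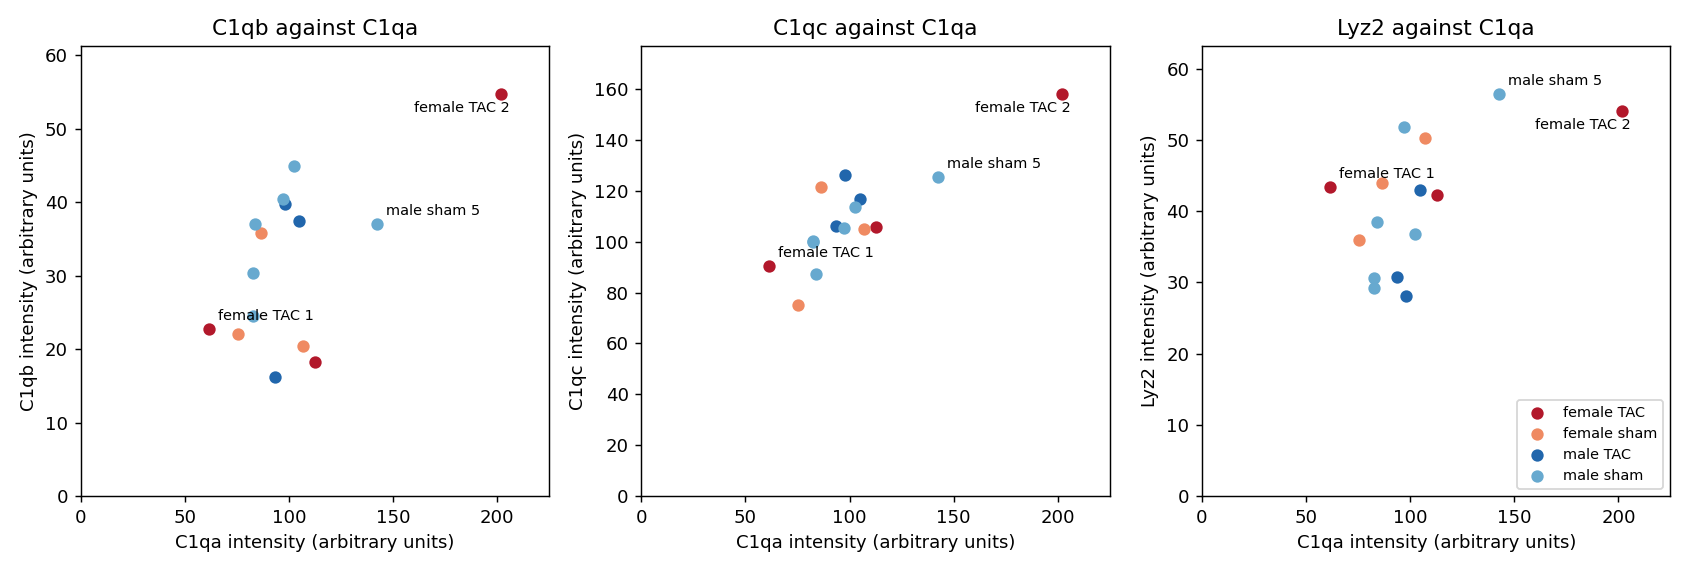
Intensities (arbitrary units) of C1qb (brighter probe set), C1qc and Lyz2 against C1qa, 1 point per array, coloured by female TAC, female sham, male TAC and male sham. Female TAC 2 lies far right in each panel, at a C1qa intensity of 201.8, and male sham 5 is next at 142.4.

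The genes whose deviations from the group means were most like the mean of the 6 members were Ube2a, Ube2r2, Serpina1c, Kat2b and Hoxa7. Their Pearson r over the 15 arrays was 0.93, 0.90, 0.90, 0.90 and 0.88. For single members the most similar other probe sets were those of Mapk8ip3 for C1qa (0.95), Mrpl45 for C1qb (0.96), Lat2 for Cd68 (0.91), Slc25a10 for Lyz2 (0.93), Zfp30 for Laptm5 (0.85) and Gnptg for Csf1r (0.88). These are the highest values among 7453 probe sets on 15 arrays that share their scaling, and no other member was the nearest to any of the 6.

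A feature the choice of genes did not use is the sequence before their starts. Entries of the RefSeq promoter table of build GRCm38.p6 were used for 4 of the 6 genes, C1qb, Cd68, Lyz2 and Laptm5. C1qa and Csf1r were not searched. Entries were filtered by chromosome before this count, so it does not show which of the 6 genes the promoter table held. The 250 bases before each start were searched on both strands for AGGAAGT, an ETS-family motif that PU.1 can bind. The motif was chosen after these sequences had been seen. It was found once in C1qb, 53 to 47 bases before the start, and once in Lyz2, 100 to 94 bases before the start. Both matches were on the opposite strand, and Cd68 and Laptm5 had none. Of 32851 promoter entries of this length, 7.7% held it. A match is a description of letters and not a shown binding site. Both sequences are printed because they carry the match, which is in capitals as it reads on the gene's own strand. The regions are chr4:136886201-136886450 for C1qb and chr10:117282273-117282522 for Lyz2, both on the minus strand.
C1qb: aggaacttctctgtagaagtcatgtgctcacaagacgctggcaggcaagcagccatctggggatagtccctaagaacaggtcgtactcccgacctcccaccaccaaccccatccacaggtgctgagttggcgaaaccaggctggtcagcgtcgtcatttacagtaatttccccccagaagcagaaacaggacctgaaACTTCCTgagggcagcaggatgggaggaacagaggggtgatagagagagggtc
Lyz2: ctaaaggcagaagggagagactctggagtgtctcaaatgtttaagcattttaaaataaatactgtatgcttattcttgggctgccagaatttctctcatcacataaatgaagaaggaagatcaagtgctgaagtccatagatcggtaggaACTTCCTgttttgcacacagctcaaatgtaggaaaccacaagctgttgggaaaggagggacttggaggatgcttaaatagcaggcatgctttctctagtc

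The wider pathway was read from lists of other genes. Of 22 further complement components, 13 were on the array and 6 were bright enough to test. TAC hearts had the higher value for 3 and the lower for 3, and none passed. Their median log2 change was -0.02, against -0.03 over all tested probe sets. C2, the protease that pairs with C4, had 0.20 ± 0.12 and Cfb, its counterpart in the alternative pathway, had -0.26 ± 0.21 (SE). Of 21 complement regulators and receptors, 18 were on the array and 10 were tested, 5 higher and 5 lower with a median of -0.05, and none passed.

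The 2 regulators of smallest p had opposite signs. Cd59a, an inhibitor of the membrane attack complex, averaged 113.9 in female TAC and 142.8 in female sham hearts, and 101.1 in male TAC and 126.6 in male sham hearts. Its log2 change was -0.33 ± 0.14 (SE), with an adjusted p of 0.599 in limma. Serping1, the C1 inhibitor, averaged 184.9 in female TAC and 154.3 in female sham hearts, and 190.7 in male TAC and 151.6 in male sham hearts. Its log2 change was 0.30 ± 0.14 (SE), with an adjusted p of 0.639, so neither passed. Itgax, a chain of complement receptor CR4, had 0.22 ± 0.13 (SE).

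Of 35 further macrophage genes, 27 were on the array and 12 were tested, 6 higher and 6 lower with a median log2 change of -0.01, and none passed. The smallest p belonged to Ncf4 with -0.19 ± 0.12, Fcgr1 with -0.16 ± 0.12 and Cyba with -0.11 ± 0.09 (SE), which encode parts of the phagocyte oxidase and an Fc receptor. Another 12 of the 27 lay below the floor on all 15 arrays, among them Adgre1 (F4/80), Mrc1 (CD206), Aif1, Tyrobp and Cybb, so several defining macrophage markers had no usable signal. Summed over the 27 genes, intensity ranged from 891 to 1032 in female TAC and 959 to 1043 in female sham hearts, and from 976 to 1035 in male TAC and 971 to 1046 in male sham hearts.

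Pan-leukocyte genes gave 12 tested of 16 on the array, 4 higher and 8 lower with a median of -0.02, and none passed. Ptprc (CD45) and Cd53 were below the floor on all 15 arrays. Hcls1, a haematopoietic cytoskeletal adaptor, had 0.30 ± 0.17, Coro1a 0.17 ± 0.10 and Cd37 -0.17 ± 0.12 (SE). Genes of the CSF1 axis and myeloid transcription factors had 10 tested members with a median of -0.02, 4 higher and 6 lower, and none passed. Maf had -0.32 ± 0.23, Csf3 0.10 ± 0.09 and Cbl -0.14 ± 0.14 (SE).

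Among chemokines and cytokines of monocytes and macrophages, 14 of 22 on the array were tested, 5 higher and 9 lower with a median of -0.06, and none passed. Ccl4, which attracts monocytes and T cells, averaged 33.8 in female TAC and 41.1 in female sham hearts, and 23.5 in male TAC and 36.2 in male sham hearts. Its log2 change was -0.45 ± 0.16 (SE), with an adjusted p of 0.447 in limma. Cxcl12 had -0.25 ± 0.14 and Ccl9 0.18 ± 0.11 (SE). Ccl9 lay near the floor, with median intensities of 22.6 in TAC and 20.7 in sham hearts. Ccl2, the main monocyte attractant, was below the floor on all 15 arrays, as were Il1b and Il6.

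**Figure D4:**
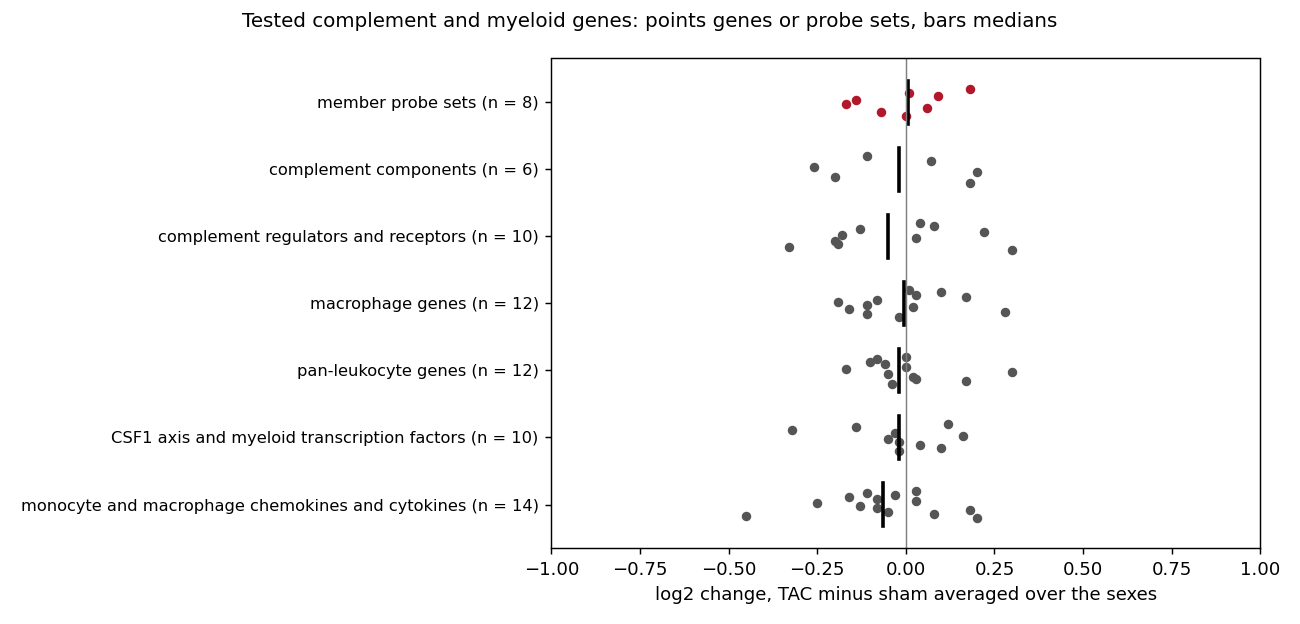
Log2 change, TAC minus sham averaged over the sexes (horizontal axis), of the 8 member probe sets and of the tested genes of 6 lists; points are probe sets or genes and bars are medians. Each median lies between -0.06 and 0.01, and none of the points passed.

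Markers of other cell types were read on the same arrays. Cardiomyocyte markers were bright, as Tnnt2 (cardiac troponin T) averaged 3502.5 in female TAC and 3439.9 in female sham hearts, and 3404.0 in male TAC and 3609.3 in male sham hearts. Of 7 tested cardiomyocyte markers, 2 were higher and 5 lower with TAC, with a median log2 change of -0.05, and none passed. The smallest p belonged to Ryr2 with -0.52 ± 0.13 (SE, adjusted p = 0.166 in limma), Myh6 with -0.32 ± 0.13 and Tnni3 with -0.27 ± 0.13 (SE), which encode the cardiac ryanodine receptor, alpha myosin heavy chain and troponin I. Fibroblast markers were higher in 6 of 9 tested genes with a median log2 change of 0.38, and Postn, which encodes the matrix protein periostin, rose by 1.45 ± 0.19 (SE, adjusted p = 0.00109 in limma). Lum had 0.57 ± 0.12 and Dcn 0.51 ± 0.13 (SE), with adjusted p of 0.0585 and 0.162, so these 2 matrix proteoglycan genes did not pass. Summed intensity of the 10 fibroblast markers ranged from 1624 to 2604 in female TAC and 1606 to 1719 in female sham hearts, and from 1841 to 2174 in male TAC and 1241 to 1704 in male sham hearts. Dcn weighed most in this sum, averaging 1196.6 in female TAC, 877.6 in female sham, 1216.4 in male TAC and 813.8 in male sham hearts. The 3 tested fibroblast markers that were lower were Thy1, Col1a2 with -0.03 ± 0.08 and Dpt with -0.01 ± 0.24 (SE). Neutrophil markers had 8 tested genes, 2 higher and 6 lower with a median of -0.10, and none passed. T cell markers had 3 tested genes, 1 higher and 2 lower with a median of -0.03, among them Thy1, which is also in the fibroblast list, with -0.29 ± 0.12 (SE, adjusted p = 0.531 in limma). None of the 3 passed, and the 4 below the floor on all arrays were Cd3d, Cd8a, Cd8b1 and Cd2. Endothelial markers had 7 tested genes with a median of 0.00 and natural killer cell markers 4 with a median of -0.06, and none passed. Mast cell markers had 3 tested genes, of which Tpsb2, a mast cell tryptase, had -0.34 ± 0.13 (SE, adjusted p = 0.486 in limma), while the dim Cma1 and Hdc had 0.13 ± 0.13 and 0.10 ± 0.16 (SE). Smooth muscle markers had 4 tested genes, 1 higher and 3 lower with a median of -0.27, and the smallest p was that of Acta2, smooth muscle actin, with -0.44 ± 0.22 (SE, adjusted p = 0.677). Red blood cell markers had 2 tested genes with a median of -0.04 and fat cell markers 2 with a median of -0.15, all 4 lower and none passed.

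Among B cell markers, the brightest probe set of each gene did not pass, while 1 of 11 tested probe sets of Ighm, the immunoglobulin mu heavy chain gene, did. It had 95.2, 80.8 and 77.3 in female TAC hearts, against 63.4, 57.4 and 43.6 in female sham hearts. In male TAC hearts it had 106.2, 109.8 and 100, against a lowest value of 47.9 and a highest of 70.1 in male sham hearts. TAC and sham arrays did not overlap, as was the case for 0.416% of all tested probe sets. It rose by 0.71 ± 0.11 (SE, adjusted p = 0.00619 in limma), while the other 10 had log2 changes from -0.35 to 0.54 and did not pass. Summed intensity of the 8 B cell markers on the array ranged from 380 to 534 in female TAC and 443 to 504 in female sham hearts, and from 374 to 484 in male TAC and 366 to 466 in male sham hearts.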

How the data were processed

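Left ventricle RNA was hybridised to 15 one-colour arrays of 12488 probe sets. The authors deposited intensities on a linear scale, and which software, background correction and scaling made them is not given in the sources used here. Array medians were within a ratio of 1.26 and were kept, pairwise array correlations were 0.947 to 0.980, and no batch is given in the labels. The 66 control probe sets were left out. Values were floored at 20, log2 was taken, and the brightest 60% by mean log2 value, 7453 probe sets, were tested. Changes of genes near the floor depend on where it is set.

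A linear model with a mean for each sex and operation was fitted with limma 3.58.1 in R 4.3.3 to the 15 arrays together. Benjamini-Hochberg adjustment ran over all 7453 probe sets, with calls at 0.05. Symbols came from the platform annotation, updated by Entrez number through a RefSeq table of GRCm38.p6 (10817 of 10833 single-symbol probe sets matched). For lists, the brightest probe set of a gene was used. Every member probe set is named, and of each of the 6 gene lists the called genes and the 3 of smallest p; marker lists of other cell types are given by count and median, with single genes chosen after their values were seen. The members and lists were chosen with earlier results of these data known. The fit was tested on simulated data.

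Sham and TAC titles share numbers 1 to 6. Deviations of same-numbered arrays correlated at 0.117 to 0.270 in females and -0.0828 to 0.0641 in males. Differently numbered arrays were not compared and the labels state no pairing, so whether the numbers mark pairs was not settled. The main fit has no block, and the female count with it is given beside the result. The number of arrays limits the precision.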

Additional observations from a re-analysis of the deposited data

Results flagged for a closer look

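For 29 probe sets, values of the 6 male sham arrays were compared for an array far from the others, and chance marks about 1 group in 20. C1qa in male sham 5 had an intensity of 142.4, where the other 5 arrays lay between 82.6 and 102.4. Cfb in male sham 8 had 64.4, where the other 5 lay between 38.3 and 47.7.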

How the results depend on the processing

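No member probe set was called in any of the 396 fits with another setting or the 600 fits without 1 array, over 8 probe sets and 5 comparisons. The sign of the uncalled log2 change differed from that reported in 19 and 50 of these. The brighter C1qb probe set moved furthest for the averaged effect, between -0.20 and 0.12 over the settings. Over all probe sets, the averaged TAC effect had 24 calls, but 42 with quantile normalization, 44 with median centring, 10 with a lower floor, 13 with no filter, 68 with array weights, 8 with the replicate block and 12 (without male TAC 5) to 29 (without male TAC 6) with 1 array left out. In females there were 6 calls, but 10 with median centring, 10 with trended and robust eBayes, 36 with array weights, 2 in a fit of the female arrays alone, 3 with the replicate block and 2 (without female sham 1) to 8 (without male sham 8) with 1 array left out. In males there were 10 calls, but 19 with median centring, 3 with the lower floor, 5 with an offset of 20, 4 with no filter, 16 with trended and robust eBayes, 3 with the replicate block, 5 with 1 probe set per gene and 3 (without male TAC 5) to 12 (without female TAC 1) with 1 array left out. The sex difference in sham hearts had 0 calls, but 1 with the lower floor, 2 with the offset, 2 with no filter, 1 with trended and robust eBayes and 2 with array weights, and 0 without any 1 array; at an unadjusted p under 0.05 it had 351 in limma. The replicate block could not be fitted for that comparison, and a fit of only the groups compared does not exist for the averaged effect or the sex difference of the effect, which use all groups. Among the pairs of members there was 1 call, C1qa with Lyz2, and there were 0 after median centring, in sham arrays alone and, chosen after seeing the data, without female TAC 2 or without male sham 5. The cause of these shifts was not tested. Cd68, Lyz2 and Csf1r rest on 1 tested single-symbol probe set each, as the second of each was below the floor on every array.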
